A study of Saccharomyces cerevisiae with 136 samples.

Results

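The 43 single cells of the 16-h age group were divided by their mRNA levels of CTT1 (YGR088W), TPS2 (YDR074W) and PNC1 (YGL037C), which are 3 genes of the yeast stress response. The mean log2 normalized count of these genes was taken in each cell. The 21 cells above the median of the 16-h age group were called stress-high, and the 22 cells at or below it were called stress-low. These 43 cells belong to a table of 125 single cells, with 37 more in the 2-h and 45 in the 36-h age group, out of 136 cells listed. The cells were wild-type haploid Saccharomyces cerevisiae grown on solid SD agar and picked by hand 16 h after birth, and the mRNA of each was made into its own Smart-seq2 library. The labels disagree on the strain, since the sample titles give BY4741 while the strain, source and growth fields give BY4742. The methods of the study also name BY4742 for the single-cell sequencing. The stress-high and stress-low cells share strain, genotype, medium and age, and the split itself was chosen on the measured values. The labels name no separate cultures, so the cells of a group are not replicates of a condition, every SD is a spread among cells, and no test was made.

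Budding yeast answers heat, oxidants, starvation and other stresses with a shared programme that depends largely on the transcription factors Msn2 and Msn4. They bind the stress response element, STRE, whose core letters are AGGGG or, on the other strand, CCCCT. Targets include enzymes that make the storage sugars trehalose and glycogen, chaperones that handle misfolded proteins, and enzymes that remove peroxides. In many stresses genes for ribosomes are turned down at the same time. In the 3-gene set, CTT1 encodes the cytosolic catalase, which breaks down hydrogen peroxide. TPS2 encodes trehalose-6-phosphate phosphatase, which carries out the last step of trehalose synthesis. PNC1 encodes the nicotinamidase that starts the salvage of NAD+ from nicotinamide.

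The promoters of the split genes and of the genes described next are shown because all of them hold several STRE cores. Each run is 100 bases upstream of the start codon in the R64 genome, 5′ to 3′ on the strand of the gene, with every AGGGG or CCCCT in capitals.
CTT1 (chrVII:654216-654315, + strand): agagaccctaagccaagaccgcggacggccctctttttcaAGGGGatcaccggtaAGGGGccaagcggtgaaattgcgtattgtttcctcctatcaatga
TPS2 (chrIV:593393-593492, + strand): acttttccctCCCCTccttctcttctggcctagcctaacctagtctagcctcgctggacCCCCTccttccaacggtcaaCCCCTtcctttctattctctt
PNC1 (chrVII:428164-428263, - strand): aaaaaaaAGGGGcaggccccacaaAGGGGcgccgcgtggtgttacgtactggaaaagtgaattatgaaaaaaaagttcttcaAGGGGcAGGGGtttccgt
TSL1 (chrXIII:70378-70477, + strand): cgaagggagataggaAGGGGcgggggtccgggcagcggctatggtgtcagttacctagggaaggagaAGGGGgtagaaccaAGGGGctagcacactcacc
TPS1 (chrII:490613-490712, - strand): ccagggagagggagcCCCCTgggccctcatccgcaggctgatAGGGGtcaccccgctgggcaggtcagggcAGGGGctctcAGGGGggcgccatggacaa
UGP1 (chrXI:369577-369676, + strand): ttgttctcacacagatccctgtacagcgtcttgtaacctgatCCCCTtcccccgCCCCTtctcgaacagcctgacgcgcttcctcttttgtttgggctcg
PGM2 (chrXIII:477815-477914, - strand): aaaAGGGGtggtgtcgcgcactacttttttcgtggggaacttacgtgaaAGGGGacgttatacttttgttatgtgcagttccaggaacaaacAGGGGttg
GLK1 (chrIII:50616-50715, + strand): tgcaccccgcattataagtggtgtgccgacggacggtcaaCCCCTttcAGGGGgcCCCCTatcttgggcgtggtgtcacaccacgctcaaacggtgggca
In the interval from 500 to 100 bases upstream of the start codon, CTT1 held 3 of these cores, TPS2 and PNC1 4 each, TSL1 and PGM2 5 each, TPS1 6, UGP1 4 and GLK1 3. Both strands were searched and overlapping matches were counted separately. In the same interval, 29.5% of 5686 genes held at least 1 core, 6.30% at least 2 and 1.44% at least 3. Among genes at least 2 log2 units higher in stress-high cells, described below, 37 of 81 (45.7%) held at least 1, 17 (21%) at least 2 and 9 (11.1%) at least 3. EGT2, RNR1, HYR1 and FIT3, also described below, held none of these letters in that interval. A match is a run of letters and not a measured binding site.

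The 3 genes that defined the split were not equally frequent. CTT1 had reads in 10 of 21 stress-high cells and in none of the 22 stress-low cells, TPS2 in 20 of 21 and 13 of 22, and PNC1 in 21 of 21 and 14 of 22. PNC1 lay between 5.98 and 9.24 log2 in stress-high cells with a median of 7.55, and between 0 and 8.06 in stress-low cells with a median of 3.80. TPS2 lay between 0 and 8.20 with a median of 6.46 in stress-high cells, and between 0 and 7.71 with a median of 1.28 in stress-low cells. CTT1 reached 7.99 in 16-h cell 30, which also had the highest 3-gene mean. Of the stress-high cells, 9 had reads of all 3 genes, while 3 stress-low cells had reads of none. The 3-gene mean was 5.36 ± 1.21 in stress-high cells (SD, n = 21) and 2.07 ± 1.17 in stress-low cells (SD, n = 22). These values made the groups and are given as a description only.

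**Figure D1:**
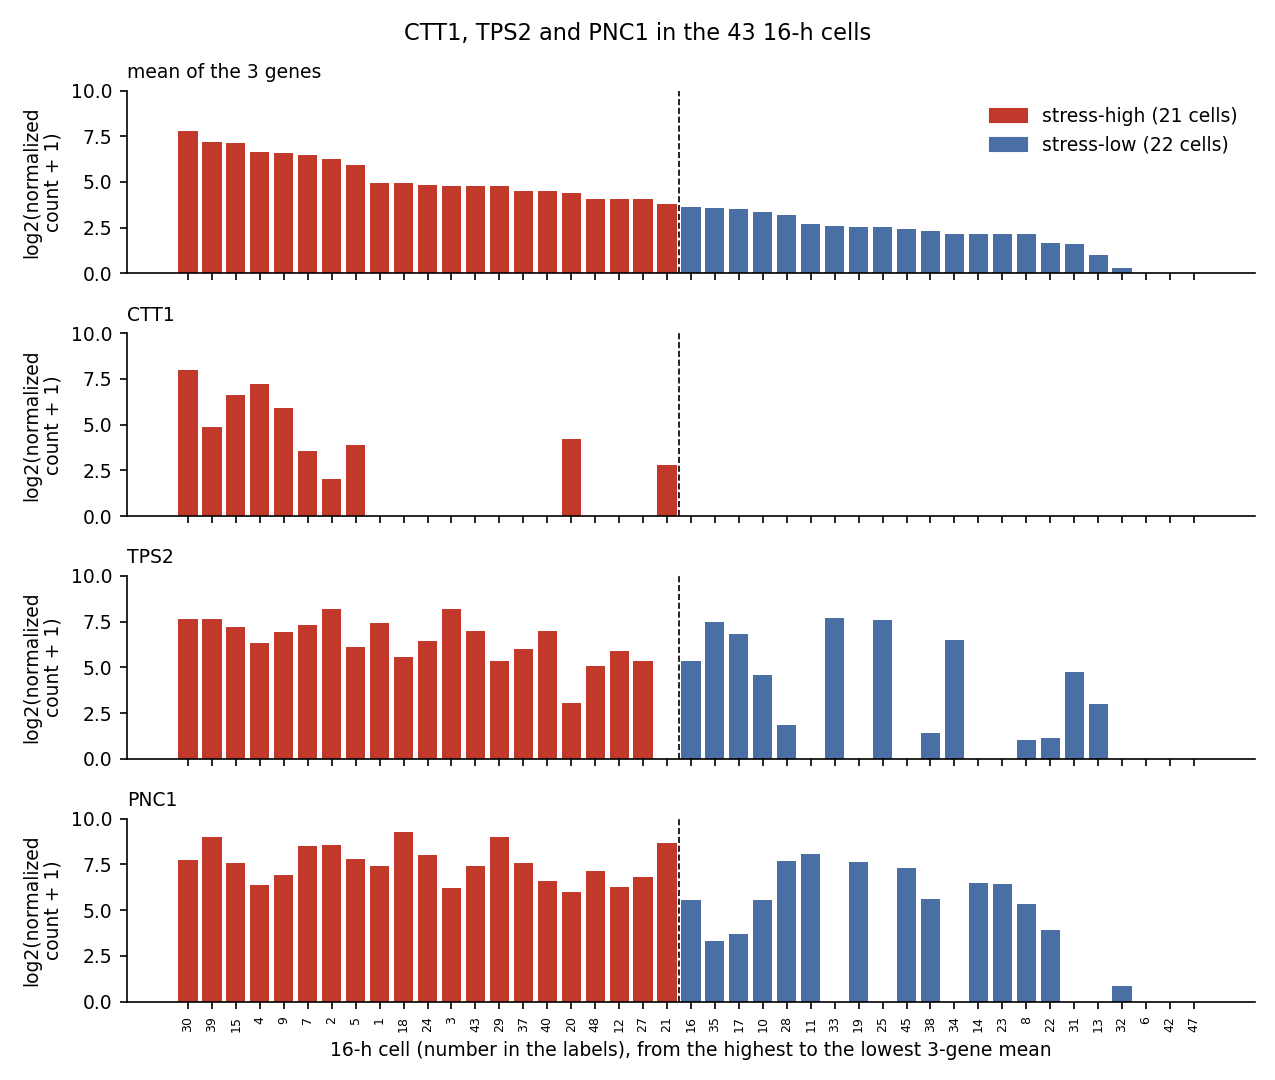
Log2(normalized count + 1) of the 3 split genes and their mean (vertical axes) in each 16-h cell, ordered from the highest to the lowest mean, with stress-high cells in red and stress-low cells in blue and a dashed line at the cut. CTT1 bars appear in 10 cells, all left of the line, and the means run from 7.80 to 0 without a break at the cut.

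The distribution had no gap at the cut. The lowest stress-high cell (16-h cell 21) had a 3-gene mean of 3.82 and the highest stress-low cell (16-h cell 16) one of 3.63, and 9 of the 43 cells lay within 0.5 of the median. Across the 43 cells, Pearson's r was 0.328 between CTT1 and TPS2, 0.337 between CTT1 and PNC1 and 0.199 between TPS2 and PNC1. These cells differ in how many genes were detected, and the part of that in r was not tested. A split on 2 of the genes left the third unused by the rule. Split in this way, CTT1 had reads in 8 of 21 cells above the median of the other two (38.1%, exact 95% interval 18.1 to 61.6%) and in 2 of 22 cells at or below it (9.09%, 1.12 to 29.2%). TPS2 had reads in 17 of 21 against 16 of 22 cells, with a difference of 1.20 log2, and PNC1 in 18 of 21 against 17 of 22, with a difference of 0.89. All intervals are exact (Clopper-Pearson) and hold the counting error of these cells alone.

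Across ages the 3-gene mean had a median of 0.72 in 2-h cells (range 0 to 4.52, n = 37), 3.63 in all 16-h cells (range 0 to 7.80) and 8.71 in 36-h cells (range 1.03 to 11.88, n = 45). Of the 43 16-h cells, 16 were above the highest 2-h cell, and none exceeded the 36-h median.

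Detection also differed between the groups, beside every result below. Stress-high cells had reads for 2544 ± 456 genes (SD, n = 21), and stress-low cells for 2164 ± 576 (SD, n = 22). Median reads were 346310 per stress-high cell and 220608 per stress-low cell. After each cell was thinned to 90000 reads, the numbers were 2325 ± 365 genes in stress-high cells and 2004 ± 479 in stress-low cells. Across the 43 cells the 3-gene mean had r = 0.566 (Spearman's rho = 0.498) with the number of genes detected, and r = 0.470 without the 2 cells farthest from the median number of genes. ACT1, the actin gene, had reads in 21 of 21 stress-high and 20 of 22 stress-low cells. The part of detection in the differences below was not tested. Values at equal depth, and within the fast-dividing (F) and slow-dividing (S) cells described further down, are given for the main genes and for the lists whose direction they bear on.

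The difference is given here as the mean log2 normalized count in stress-high minus that in stress-low cells, and a difference of at least 2 log2 units, in either direction, is counted as large. Of the 5997 genes in the table, 3907 had reads in at least 11 of the 43 cells and were compared. Their median difference was 0.30, and 66.7% were higher in stress-high cells. In all, 83 genes (2.12%) were at least 2 higher and 7 (0.179%) at least 2 lower. Measured relative to the median of all genes, 38 were at least 2 higher and 24 at least 2 lower. At 90000 reads per cell the median difference was 0.26, and all 83 genes were still higher, 69 of them by at least 2. The size of a difference here depends on the 1 added before the log2, since many cells have no read of a gene, and with 10 added instead only 1 gene was at least 2 higher and none lower. Because the groups were chosen on 3 genes of the same cells, these counts describe the split and are not evidence for it.

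Trehalose genes included the largest difference outside the split genes. TSL1, a regulatory subunit of the trehalose synthase complex, lay between 0 and 9.48 with a median of 7.03 in stress-high cells, and between 0 and 7.08 with a median of 0 in stress-low cells. It had reads in 15 of 21 stress-high cells (71.4%, 47.8 to 88.7%) and in 8 of 22 stress-low cells (36.4%, 17.2 to 59.3%). The groups overlapped, since 6 stress-high cells had no TSL1 read. The difference of 3.91 was the highest of the 3907 genes, which leave out the 3 split genes, and it was 3.96 at equal depth, 3.96 within F cells and 3.99 within S cells. TPS1, the trehalose-6-phosphate synthase, had reads in 20 of 21 stress-high cells (median 6.67, range 0 to 8.72) and in 11 of 22 stress-low cells (median 0.53, range 0 to 8.60), a difference of 3.10 (2.52 within F and 4.09 within S cells). The highest values of TPS1 were alike in both groups, and the groups differed mainly in how many cells had low or no signal. All 15 stress-high cells with TSL1 reads also had TPS1 reads, against 6 of 8 such stress-low cells. All 5 trehalose genes compared were higher, beside 66.7% of all genes, with a median difference of 1.27. The trehalases NTH1 and NTH2, which break trehalose down, differed least among them, by 0.90 and 0.38.

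Genes of the path from glucose to glycogen showed the same direction. UGP1, which makes the UDP-glucose used for both glycogen and trehalose, lay between 0 and 8.04 in stress-high cells with a median of 5.31, and between 0 and 6.79 in stress-low cells with a median of 0.41. Its difference was 2.81 (2.49 within F and 3.17 within S cells), and its reads were found in 19 of 21 stress-high against 11 of 22 stress-low cells. PGM2, the major phosphoglucomutase, had reads in 15 of 21 stress-high cells (median 5.48) and 6 of 22 stress-low cells (median 0), a difference of 2.70 (1.44 within F and 4.75 within S cells). Both kinds of cell reached similar maxima, 8.17 in stress-high and 7.22 in stress-low cells. GSY2, a glycogen synthase, differed by 1.86, and the debranching enzyme GDB1 by 1.28. All 5 glycogen genes compared were higher, beside 66.7% of all genes, with a median of 2.06. Of them 3 were large (2.12% of all genes were), namely UGP1, PGM2 and the minor phosphoglucomutase PGM1 at 2.06. PGM1 was named after its values were seen. GLK1, the glucokinase that phosphorylates glucose, had reads in 20 of 21 stress-high cells (median 6.75, range 0 to 8.58) and in 11 of 22 stress-low cells (median 1.13, range 0 to 7.72), a difference of 3.71 (3.02 within F and 4.73 within S cells). GLK1 overlaps a further annotated gene on its own strand. The hexokinase HXK1 differed by 2.19, with reads in 10 of 21 and 4 of 22 cells.

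**Figure D2:**
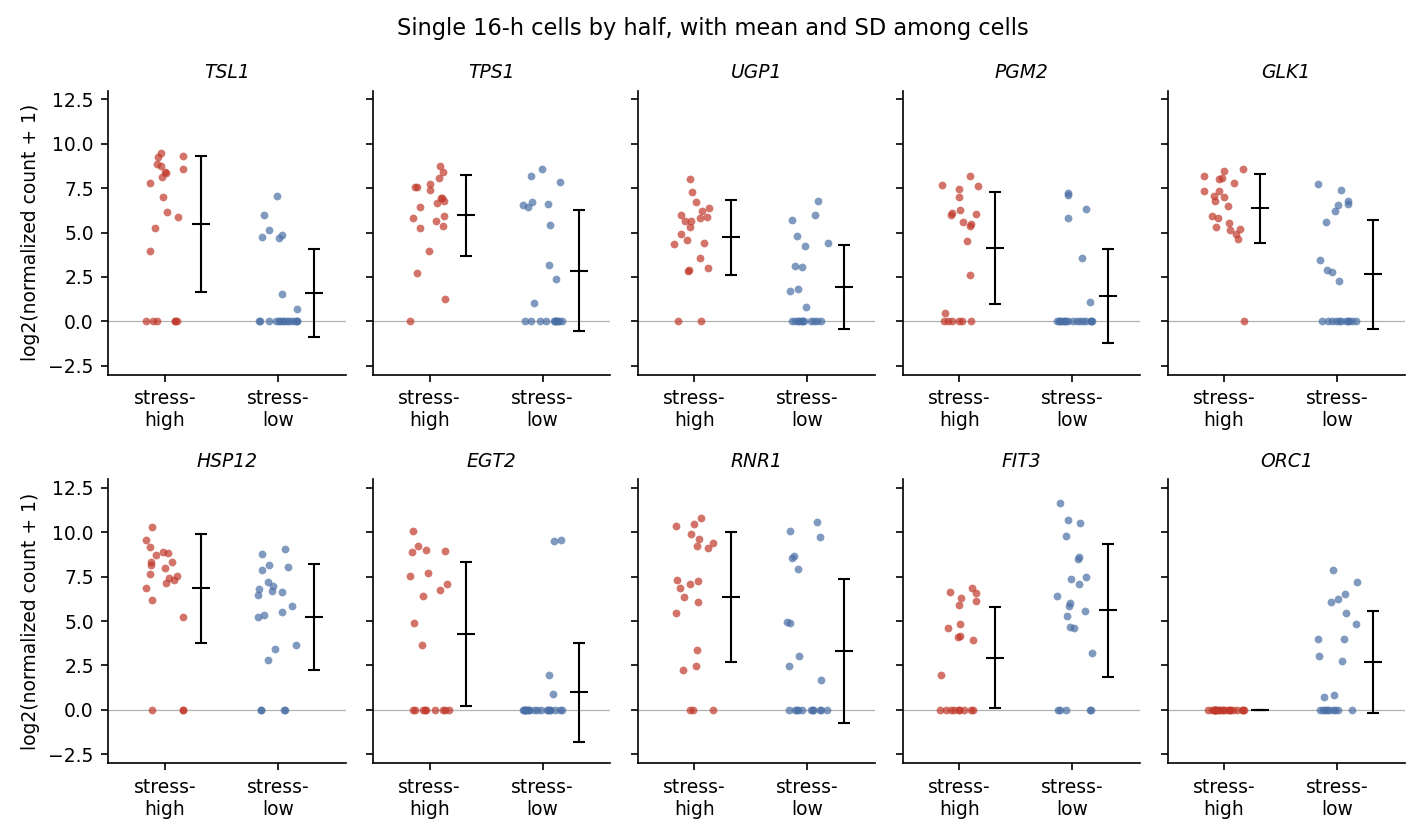
Log2(normalized count + 1) of 10 genes in single 16-h cells, stress-high in red on the left and stress-low in blue on the right, with the mean and SD among cells as black bars. TSL1, TPS1, UGP1, PGM2 and GLK1 show more cells at 0 among stress-low cells, FIT3 reaches 6.84 in stress-high and 11.67 in stress-low cells, and ORC1 is at 0 in all 21 stress-high cells.

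Msn2/Msn4 target genes, without the split genes, were then taken as a list. It holds genes already described. TSL1, TPS1, UGP1, PGM2, GLK1 and HXK1 are among them and are counted again among its large genes. Of 50 listed genes 40 were compared. Of those, 37 were higher in stress-high cells (66.7% of all genes were) and 10 by at least 2 (2.12% of all genes were), with a median difference of 1.40 against 0.30 for all genes. The same median was 1.38 at equal depth, 0.97 within F cells and 2.14 within S cells, where the median of all genes was 0.09 and 0.56. The mean log2 of these 40 genes lay between 1.92 and 5.36 in stress-high cells with a median of 3.71, and between 0.97 and 3.45 in stress-low cells with a median of 2.12. Thus 12 of 21 stress-high cells were above every stress-low cell, and 9 of 22 stress-low cells were below every stress-high cell. A stress-high cell had reads for 26.3 ± 5.86 of the 40 genes (SD, n = 21), and a stress-low cell for 17.5 ± 6.24 (SD, n = 22). Across the 43 cells the mean of the list had r = 0.776 (rho = 0.773) with the 3-gene mean, and r = 0.656 after a straight line on genes detected was removed from both. The exceptions were HXT5 (-0.42), a moderate-affinity hexose transporter, GPP2 (-0.36), a glycerol-3-phosphatase, and DDR48 (-0.10). DDR48 was named after its values were seen. The list was drawn from known targets, and all 40 held at least 1 STRE core in the interval searched, so the list and the motif are not separate evidence.

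**Figure D3:**
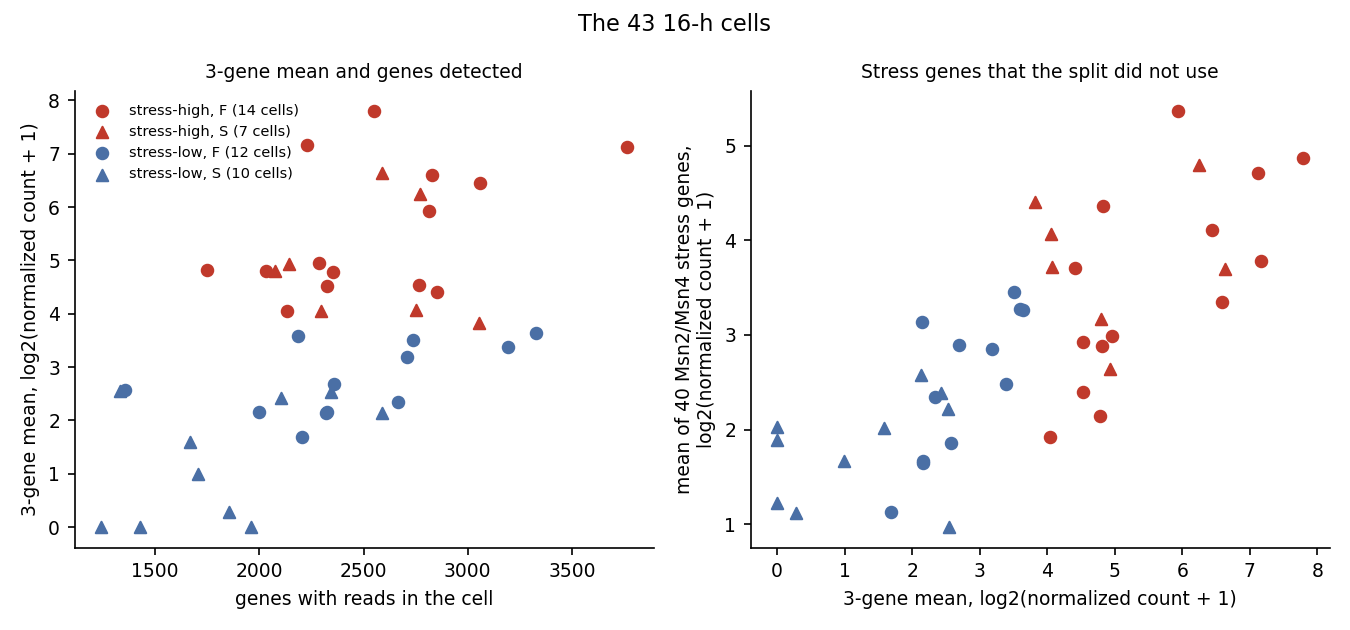
Left, the 3-gene mean (vertical axis) against the number of genes with reads in each 16-h cell. Right, the mean of 40 stress genes that the split did not use (vertical axis) against the 3-gene mean. Red is stress-high, blue stress-low, circles are F and triangles S cells, and higher values go together in both panels, with r = 0.566 and r = 0.776.

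Stress-high cells with and without CTT1 reads, a division by a gene that the rule used, are described next. The mean of the 40 stress genes was 4.28 ± 0.65 in the 10 stress-high cells with CTT1 reads and 3.02 ± 0.77 in the 11 without (SD among cells), beside 2.19 in stress-low cells, and the values of the 10 and the 11 cells overlapped. Those 10 cells also had reads for more genes, 2851 ± 404 against 2265 ± 298, and the part of this in the difference was not tested. The number of genes in the 11 cells without CTT1 reads was close to the 2164 of stress-low cells.

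Chaperones and peroxide-removing enzymes were uneven. Among 20 chaperone genes 18 were higher, beside 66.7% of all genes, with a median of 1.09 (0.53 within F and 1.37 within S cells), and HSP42, a small heat shock protein, was the only large one at 2.38. HSP42 had reads in 16 of 21 stress-high cells and in 7 of 22 stress-low cells. The Hsp40 co-chaperone SIS1 differed by 1.65, and the disaggregase HSP104 by 1.61 (0.31 within F cells and 3.58 within S cells). HSP82, an Hsp90, was at 6.71 ± 2.69 in stress-high and 6.72 ± 2.24 in stress-low cells. Its difference was 1.18 within F and -1.55 within S cells, in opposite directions. The mitochondrial chaperonin HSP60 was lower (-0.75), with -2.04 within F and 0.82 within S cells. Among 30 antioxidant genes 23 were higher, near the share over all genes, with a median of 0.52 (0.10 within F and 0.80 within S cells). HYR1, a thiol peroxidase also called GPX3, had reads in 19 of 21 stress-high cells (median 4.47) and in 10 of 22 stress-low cells (median 0), a difference of 2.65. PRX1, the mitochondrial peroxiredoxin, differed by 2.29. The nitric oxide dioxygenase YHB1 (-1.0) and the mitochondrial thioredoxin reductase TRR2 (-1.40) were lower in stress-high cells. Of 19 Yap1 targets, genes of the oxidant response that depend on another factor, 14 were higher, beside 66.7% of all genes. Their median was 0.47 (-0.12 within F and 1.1 within S cells).

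Outside storage sugars, glycolysis and fermentation had a median of 0.07 over 19 genes. Of them 2 were large (2.12% of all genes were), GLK1 and HXK1, both already described above. The triose phosphate isomerase TPI1 differed by -0.07 (10.41 ± 0.43 in stress-high and 10.47 ± 0.67 in stress-low cells). The medians were 0.18 over 14 genes of the TCA cycle, glyoxylate cycle and gluconeogenesis and -0.23 over 3 hexose transporters. For the respiratory chain and ATP synthase the median was 0.44 over 35 genes, and QCR7, a subunit of complex III, was the large one at 2.08. NAD synthesis and salvage, the path of PNC1, had a median of 0.63 over 12 genes (0.45 at equal depth, 0.18 within F and 1.43 within S cells), with URH1, a nucleoside hydrolase, the highest at 1.66. The proteasome had a median of 0.61 (0.26 within F and 1.18 within S cells). Of its 32 genes 27 were higher, beside 66.7% of all genes, and the lid subunit RPN6 was at 2.48. Of 11 reference transcripts, 5 were higher and 6 lower in stress-high cells, beside 66.7% of all genes higher. They ran from -0.95 for TUB2 to 1.20 for CDC48, with ACT1 at 0.93.

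Genes of ribosomes and of their assembly were taken as separate lists. For the cytosolic ribosomal protein genes, of which all but 2 in the table were compared, the median difference was 0.30, that of all genes also being 0.30, and none was large. Of these genes 115 were higher, a share above the 66.7% of all genes, and the median was 0.02 within F cells and 0.63 within S cells. Their mean log2 was 7.24 ± 0.43 in stress-high and 6.89 ± 0.71 in stress-low cells. The 83 genes of ribosome assembly and RNA polymerase I had a median of -0.17, with 32 of 83 higher in stress-high cells against 66.7% of all genes. The exosome nuclease RRP6 (-1.99) and the large-subunit assembly factor NOC2 (-1.99) were the lowest of them. The exosome subunit RRP40 was 1.44 higher (-0.03 within F and 4.23 within S cells). NOC2 had reads in 9 of 21 stress-high and 15 of 22 stress-low cells. Translation factors had a median of -0.02 over 20 genes (-0.33 within F and 0.83 within S cells). Across cells, the mean of the ribosome assembly genes had r = -0.030 with the 3-gene mean.

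Cell cycle genes differed by phase. The 9 genes of the M/G1 transition and daughter separation were all higher in stress-high cells, with a median of 1.46 (0.98 within F and 2.63 within S cells), and 8 of them were above the median of all genes. EGT2, a cell wall protein of cell separation, had reads in 12 of 21 stress-high cells (57.1%, 34 to 78.2%) and in 4 of 22 stress-low cells (18.2%, 5.19 to 40.3%). Its values were between 0 and 10.05 in stress-high cells with a median of 4.89, and between 0 and 9.54 in stress-low cells with a median of 0, a difference of 3.30 (1.89 within F and 5.45 within S cells). AMN1, an inhibitor of mitotic exit, differed by 2.33, and the cell wall protein PIR1, named after its values were seen, by 2.25. Among 9 G1/S genes 7 were higher, beside 66.7% of all genes. They were led by RNR1, the large subunit of ribonucleotide reductase, at 3.06 (1.58 within F and 5.38 within S cells) and the G1 cyclin PCL1 at 2.20. RNR1 had reads in 18 of 21 stress-high cells and 11 of 22 stress-low cells, and all 12 stress-high and 4 stress-low cells with EGT2 reads also had RNR1 reads. None of the 8 histone genes was higher, and their median was -0.65, with HHF1 (histone H4) at -1.86 and HTB2 (histone H2B) at -1.63. The histone median was -1.61 within F cells and 0.58 within S cells, so its direction differed with the subgroup. The 8 G2/M genes had a median of -0.65, with SWI5, a transcription factor of M/G1 genes, at -0.97. CIP1, an inhibitor of cyclin-dependent kinase complexes at the G1/S step, had reads in 11 of 21 stress-high and 4 of 22 stress-low cells, a difference of 2.91. The mean of the M/G1 genes had r = 0.319 with the 3-gene mean and r = -0.309 with the mean of the histone genes.

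**Figure D4:**
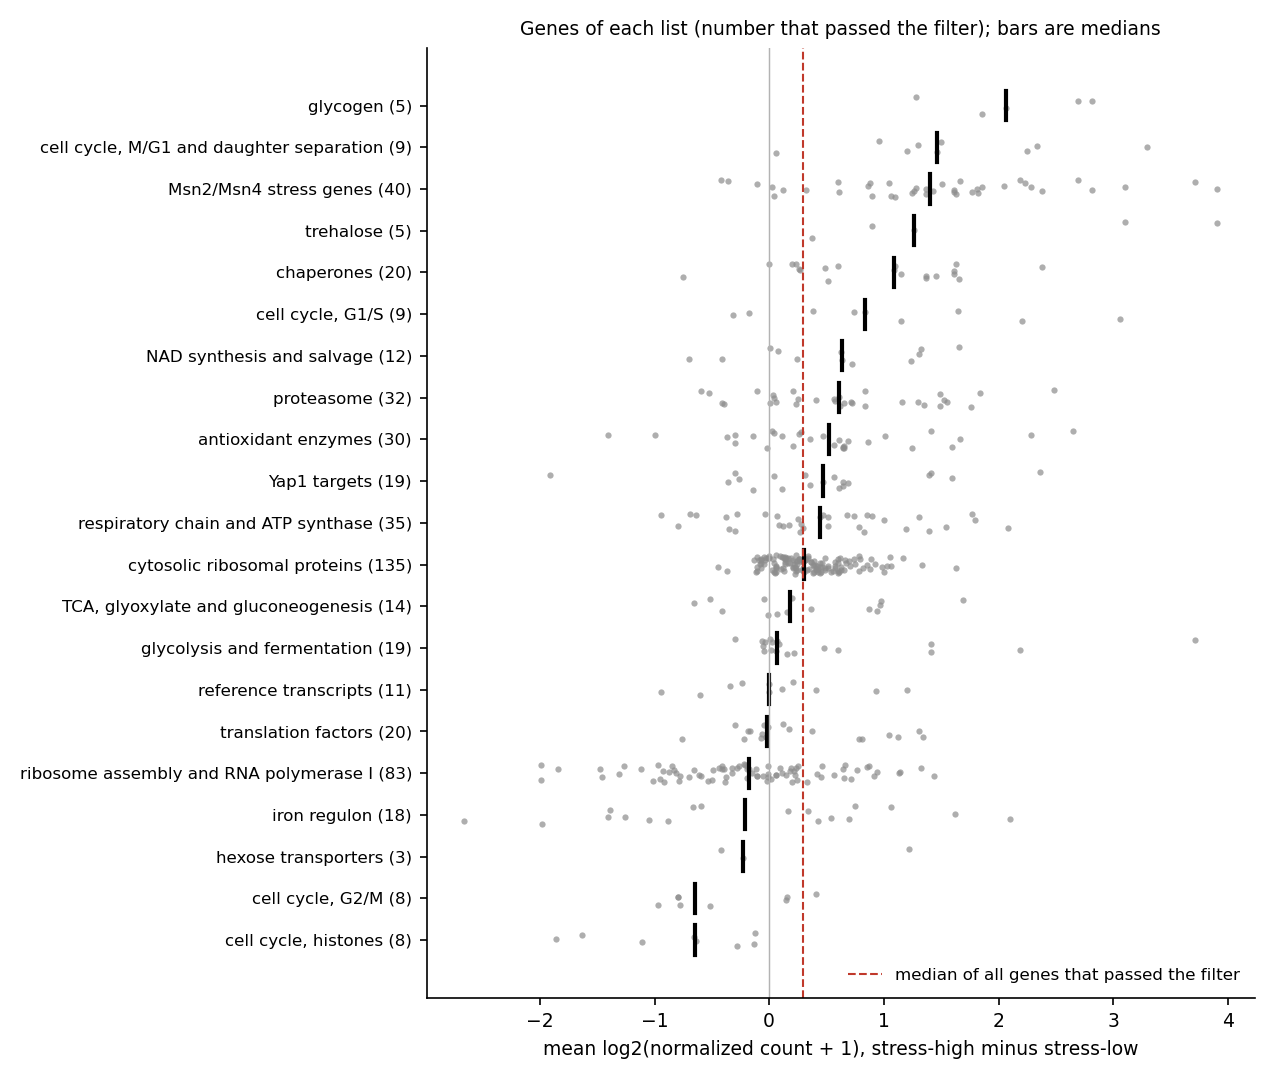
Difference of mean log2(normalized count + 1), stress-high minus stress-low, for each gene (grey points) of 21 lists, with the list median as a black bar and the median of all genes compared, 0.30, as a dashed line. The medians of the glycogen (2.06), M/G1 (1.46), Msn2/Msn4 (1.40) and trehalose (1.27) lists lie to the right of the line, and those of the histone and G2/M lists (-0.65 each) to the left.

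Further genes among the 12 highest came from other processes. MF(ALPHA)1, the alpha-factor pheromone gene, had reads in 17 of 21 stress-high cells (median 6.58) and 11 of 22 stress-low cells (median 0.43), a difference of 2.69, and 85.8% of its 50-base stretches were unique in the genome. STE3, the a-factor receptor of alpha cells, had reads in 14 of 21 stress-high and 8 of 22 stress-low cells. STE2, the receptor of a cells, had reads in none of the 43. BAR1, also looked at as a gene of a cells, had reads in 1 of 21 stress-high and 4 of 22 stress-low cells. The alpha-type genes MF(ALPHA)2 and SAG1 were not higher, with differences of -0.12 and -0.13. MF(ALPHA)2 had reads in 10 of 21 stress-high and 7 of 22 stress-low cells, and SAG1 in 4 and 5. JSN1, a Pumilio-family RNA-binding protein, differed by 2.95, the fatty acid elongase ELO1 by 2.83 and RFS1 by 2.69. ELO1 had reads in 20 of 21 stress-high cells (median 7.84) and 16 of 22 stress-low cells (median 5.67).

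The genes most like the 3-gene mean across the 43 cells were led by UGP1 (r = 0.685) and GLK1 (r = 0.645). They were followed by RPB7, a subunit of RNA polymerase II, at 0.591, then RRG7, YFR052C-A, the actin-binding protein SCP1, PGM2, MF(ALPHA)1, TCB1 and SWD2, with r between 0.54 and 0.58. YFR052C-A was not in the annotation used, so whether it overlaps another gene or shares reads with one was not tested. Likeness here is Pearson's r over cells that differ in detection depth, and the part of depth in these r values was not tested. The genes were the 10 highest of 3907.

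Few genes were markedly lower in stress-high cells. ORC1, the large subunit of the origin recognition complex, had no reads in any of the 21 stress-high cells (exact interval 0 to 16.1%), against 13 of 22 stress-low cells (59.1%, 36.4 to 79.3%). Its values in stress-low cells were between 0 and 7.87 with a median of 1.80, a difference of -2.70. FIT3, a cell wall mannoprotein that retains iron-siderophores, lay between 0 and 6.84 with a median of 3.92 in stress-high cells, and between 0 and 11.67 with a median of 5.94 in stress-low cells. It had reads in 12 of 21 stress-high and 17 of 22 stress-low cells, a difference of -2.66. That difference was -1.25 within F cells and -3.82 within S cells. Across the 43 cells FIT3 had r = -0.458 (rho = -0.433) with the 3-gene mean, and r = -0.397 without the 2 cells farthest from the median of the 3-gene mean. Within F cells r was -0.119 (n = 26) and within S cells -0.545 (n = 17). Of the other iron regulon genes, the putative ferric reductase FRE6 was 1.98 lower. FET5 (2.1), a multicopper oxidase, and FTR1 (1.62), the iron permease, were higher. FIT2 (-1.05) and FET3 (-1.26), which the study relates to generation along with FIT3, were lower. They were named after their values were seen. Of the 18 genes 9 were higher, beside 66.7% of all genes, and the median was -0.21. It was 0.21 within F cells and -0.85 within S cells, so its direction differed with the subgroup.

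The other genes at least 2 lower were BRE1 (-2.41), the ubiquitin ligase of histone H2B, IFH1 (-2.03), a coactivator of ribosomal protein genes, DNM1 (-2.02), the dynamin of mitochondrial fission, UPA2 (-2.02) and GDE1 (-2.0), a glycerophosphocholine phosphodiesterase. IFH1 had reads in 10 of 21 stress-high cells (median 0) and 16 of 22 stress-low cells (median 3.82). BRE1 had reads in 11 of 21 stress-high cells (median 0.75) and 17 of 22 stress-low cells (median 4.95).

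The split was also set against generation and division rate. The number of divisions of each cell, and its place among the slow-dividing or fast-dividing cells, came from the study's record of single cells and not from the repository labels. Mean generation was 8.95 ± 1.36 in stress-high cells (SD, n = 21) and 8.68 ± 1.99 in stress-low cells (SD, n = 22), a difference of 0.27 that was smaller than either spread. The 3-gene mean had r = 0.318 (rho = 0.290, n = 43) with generation, and r = 0.203 after a straight line on genes detected was removed from both. Leaving out the 2 cells whose generation was farthest from the median, r lay between 0.18 and 0.326, depending on which of 7 tied cells was left out. Within the subgroups r was -0.213 over 26 F cells and 0.342 over 17 S cells.

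S cells made up 7 of 21 stress-high cells (33.3%, 14.6 to 57.0%) and 10 of 22 stress-low cells (45.5%, 24.4 to 67.8%), and the intervals overlapped widely. The 3-gene mean was 2.77 ± 2.16 in S cells (SD, n = 17, range 0 to 6.63) and 4.27 ± 1.74 in F cells (SD, n = 26, range 1.69 to 7.80). The 6 cells with the lowest 3-gene means were all S cells, among them the 3 cells with no read of any of the 3 genes. These cells were also among those with few genes detected, as the plot of the 3-gene mean against genes detected shows. Without those 3 cells the difference in generation was 0.00501. Stress-high S cells had a 3-gene mean of 4.93 ± 1.11 (SD, n = 7) and stress-high F cells one of 5.57 ± 1.24 (SD, n = 14), while stress-low S cells had 1.25 ± 1.12 (SD, n = 10) and stress-low F cells 2.75 ± 0.68 (SD, n = 12).

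The same split was then made within the other age groups, in cells the 16-h split did not use. At 36 h, 22 cells were above their own median of 8.71 and 23 at or below it, and these groups had reads for like numbers of genes, 2186 and 2269 on average. Of 3674 genes compared, 163 (4.44%) were at least 2 higher and 91 (2.48%) at least 2 lower in the upper cells. Of the 83 genes that were large at 16 h, 78 could be compared at 36 h. Of these 55 were higher (70.5%, beside 49.3% of all genes), 15 by at least 2 (19.2%, beside 3.89%), with a median of 0.75. TSL1 differed by 6.11 at 36 h, HXK1 by 4.31, PGM2 by 4.13, HSP42 by 3.30, TPS1 by 2.87, UGP1 by 2.56 and GLK1 by 2.16. Among the cell cycle genes, the G1/S genes RNR1 (-1.58) and PCL1 (-1.04) had the opposite sign at 36 h, EGT2 was at 1.05 and AMN1 at 0.97. The histone genes had a median of -0.65 at 36 h as well, with HTB2 at -2.32. FIT3 was lower in the upper cells at both ages, by 2.66 at 16 h and 2.96 at 36 h on the log2 scale, while ORC1 differed by only -0.43 at 36 h. The ribosomal protein genes had a median of -1.04 at 36 h, and ribosome assembly genes one of -1.38 over 52 genes. The Msn2/Msn4 list had a median of 2.89 at 36 h, with 31 of 40 genes at least 2 higher.

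**Figure D5:**
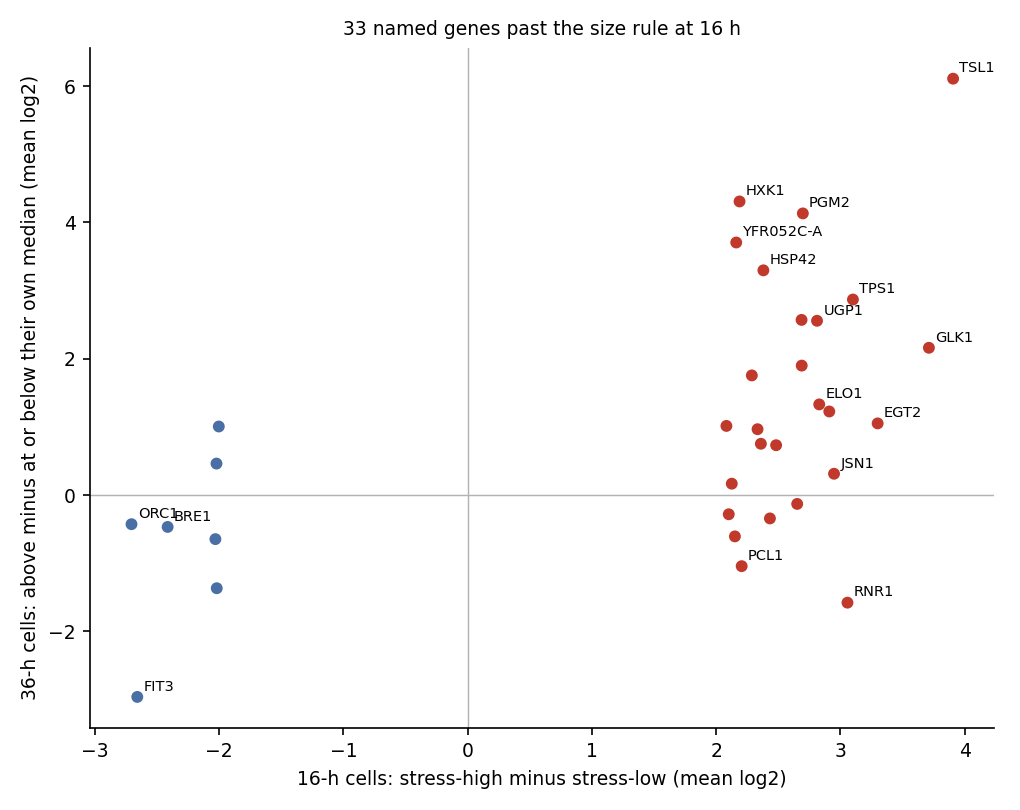
Differences of mean log2(normalized count + 1) for the 33 named genes that were large at 16 h, excluding the split genes, with stress-high minus stress-low cells at 16 h on the horizontal axis and 36-h cells above minus at or below their own median on the vertical axis. Storage sugar genes such as TSL1 (3.91 and 6.11) lie high on the right, and RNR1 (3.06 and -1.58) and PCL1 below 0. At 36 h PCL1 had reads in only 7 and EGT2 in only 9 of 45 cells.

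At 2 h, 18 cells were above and 19 at or below a median of 0.72, where 14 of the 37 cells had reads of none of the 3 genes and 21 of only 1. Of 3179 genes 15 (0.472%) were at least 2 higher and 52 (1.64%) at least 2 lower. Of the 83 genes 55 could be compared, 28 were higher (50.9%, beside 43% of all genes) and 2 by at least 2 (3.64%, beside 0.475%), with a median of 0.01 beside -0.12. TSL1 differed by 0.58, GLK1 by 0.52 and UGP1 by -0.21. Pairwise r among CTT1, TPS2 and PNC1 was between -0.12 and -0.07 at 2 h, between 0.20 and 0.34 at 16 h and between 0.60 and 0.73 at 36 h, over 37, 43 and 45 cells. Mean TSL1 was 0.83 in 2-h cells, 5.49 in stress-high and 1.58 in stress-low 16-h cells, and 6.39 in 36-h cells.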

How the data were processed

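Single yeast cells were lysed and made into Smart-seq2 libraries, which carry no molecular identifiers, so reads are not independent molecules. Per the labels and the methods of the study, reads were mapped to R64 with HISAT2 2.1.0, sorted with SAMtools 1.1 and counted per gene with featureCounts. Strand and multi-mapping settings are not given in the sources used here. The deposited values are log2(normalized count + 1), which the authors made with DESeq2 size factors. All 278228 values above 0 were whole reads within a tolerance of 0.05 after the log2 was undone, with a largest deviation of 7.37e-05. At 16 h, reads ran from 95476 to 833501 per cell, and no pair of cells was identical. Of the gene identifiers 5693 matched the R64 annotation and 304 did not, and no value column was left unmapped.

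The filter kept genes read in 11 or more of the 43 cells (25%), and these were compared by differences of mean log2 values, and at least 2 was counted as large. No test, p or count model was used, since each group counts as 1 sample. Thinning to 90000 reads used seed 20221. The split genes, the gene lists and the thresholds were chosen with earlier results of these data known. Genes are named by this rule: the 3 split genes, the 12 highest and the 12 lowest differences, the 2 highest and 2 lowest of each list, the 10 most correlated with the 3-gene mean, and HSP104, FIT3 and HAC1, which the study discusses. Of 102 named genes in the annotation, 7 had under 90% unique 50-base stretches (among them MF(ALPHA)1 and HHF1), so their reads may be shared. Alternatives were other split genes, a stricter cut, scalings, depths, filters and subsets of cells. The steps were tested on simulated counts with known changes added to a mean profile shared by both groups. That test does not address detection that differs between the groups, nor a split chosen on the same cells. Python 3.11.15, pandas 2.3.3, numpy 2.4.6 and scipy 1.17.1 were used. MFA1, MFA2, HIS3, LEU2, URA3 and MET17 were looked for but not found among the genes of the table, so they could not be examined.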

Additional observations from a re-analysis of the deposited data

How the results depend on the processing

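The counts of genes at least 2 log2 units higher and at least 2 lower in stress-high cells (83 and 7) moved with most settings, and the cause was not tested. They were 55 and 11 when the split used CTT1 and PNC1, 63 and 20 with CTT1 and TPS2, and 58 and 3 with TPS2 and PNC1. The highest 14 against the lowest 14 cells gave 219 and 33, thinning to 90000 reads with a new split 57 and 14, and an added 10 in place of 1 left 1 and 0. Genes read in at least 50% of cells gave 49 and 4, and a difference of at least 3 gave 5 and 0. With fewer cells the counts were 80 and 51 within F cells, 539 and 81 within S cells, 130 and 105 in cells with at least the median number of reads, and 273 and 95 in those with fewer. In settings added after the data were seen they were 124 and 97 in cells with at least the median number of genes detected, 260 and 77 in those with fewer, and 82 and 14 without the 3 cells that had no read of the 3 genes.

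The median of the Msn2/Msn4 genes (1.40) stayed above 0 in every setting run and was lowest, 0.61, with 10 added. The ribosome assembly median (-0.17) was 0.08 in cells with fewer than the median number of reads and at or below -0.01 in the other settings. The share of S cells, 12.1 percentage points lower in stress-high cells, was 8.55 points higher among cells with at least the median number of genes detected, and lay between -35.7 (highest 14 against lowest 14 cells) and -1.79 points in the other settings, with -30.7 when the split used CTT1 and TPS2. The generation difference (0.27) lay between -0.48, in those same cells, and 1.02. HXK1 (2.19) turned to -0.013 in cells with fewer than the median number of genes detected. For 33 named genes at least 2 apart, 494 of 495 values under these settings kept their sign. No paired analysis was possible because cell numbers only name cells and no result comes from a test.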

Other observations

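Several more of the 83 genes at least 2 higher in stress-high cells were looked at singly, after their values were seen, and they stand for no group. CHS1, a chitin synthase, averaged 4.84 ± 3.47 log2 in stress-high and 2.30 ± 3.15 in stress-low cells. HSP150, a secreted cell wall glycoprotein, averaged 5.01 ± 4.37 in stress-high and 2.43 ± 3.71 in stress-low cells, and CRH1, a chitin transglycosylase, 4.22 ± 3.58 in stress-high and 2.01 ± 3.11 in stress-low cells (SD among 21 and 22 cells). TSC10, the 3-ketosphinganine reductase, and TSC3, a small subunit of serine palmitoyltransferase, both act early in sphingolipid synthesis and were 2.61 and 2.33 higher. In the split of 36-h cells HSP150 was 2.66 higher in the upper cells and CHS1 0.74 higher, while CRH1 differed by -2.28, TSC10 by -0.42 and TSC3 by -0.03. ALD6, the cytosolic acetaldehyde dehydrogenase, was 2.54 higher in stress-high cells at 16 h and 2.85 higher in the upper cells at 36 h.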
